A study of Mus musculus with 4 samples.

Results

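The genes Ifnar1, Ifnar2, Ifngr1, Ifngr2, Il10ra and Il10rb encode the chains of 3 cytokine receptors, and they were taken by name as a group. They are 6 of the 50600 gene rows in each deposited table. The chains Ifnar1 and Ifnar2 form the receptor for type I interferons, Ifngr1 and Ifngr2 the receptor for interferon gamma, and Il10ra and Il10rb the receptor for interleukin 10. All 6 transcripts were found in every library, at means that spanned 4.64-fold from Il10ra to Ifngr1.

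These chains belong to the class II cytokine receptor family. None of them is an enzyme: each carries a Janus kinase on its inner tail, and binding of the cytokine brings the chains together so that the kinases activate STAT transcription factors. JAK1 sits on IFNAR2, IFNGR1 and IL10RA, TYK2 on IFNAR1 and IL10RB, and JAK2 on IFNGR2. In T cells type I interferon induces antiviral genes, interferon gamma induces genes of antigen presentation, and interleukin 10 restrains activation through STAT3. IL10RB is also a chain of the receptors for IL-22 and for interferon lambda. In the mouse the genes of 4 of the chains lie side by side on chromosome 16.

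RNA came from mouse primary cells of strain C57BL/6NJ labelled T-helper 17, a CD4 T-cell type that makes interleukin 17, in 4 libraries that form 1 group with biological replicate numbers 1 to 4. Each library has its own biosample record, all share 1 donor record, and the labels name no treatment, time, control, allele, age or sex. In the file headers, however, each alignment name has an hour tag of 0, whose meaning is not stated, so whether the cells were taken before or after differentiation is not known here. They point to a protocol for CD4 T-cell differentiation. The assay is called total RNA-seq in them, but the title of the library protocol they link to says poly(A)+. Whether the libraries came from separate animals is not stated, so p-values measure only the spread between these samples.

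Counted fragments per library ran from 29041979 to 48808978, and the biological coefficient of variation over all genes was 9.80%. All 7 CD4 T-cell markers and all 7 naive T-cell markers reached 1 TPM (a transcript level scaled by gene length and library total) in every library, with summed levels of 7855 to 8154 and 6408 to 7260 TPM. Only 3 of 8 Th17 markers did so, summing to 14.7 to 26.3 TPM with the highest sum in replicate 1. Th17 is therefore used here only as the label of the libraries. B-cell, dendritic-cell and granulocyte markers reached 1 TPM in 0 of 7 cases each, and NK or CD8 T-cell markers in 1 of 7, Cd8b1 at 42.9 TPM, with a summed level of 40.5 to 47.9 TPM for that list. In bulk RNA fewer cells of a type and less RNA per cell cannot be told apart.

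Ifngr1, the ligand-binding chain of the interferon gamma receptor (ENSMUSG00000020009, chromosome 10, 19591949 to 19610229, plus strand, mm10), had the highest level of the 6. It was at 139, 156, 128 and 144 TPM in replicates 1 to 4, with a mean of 142 ± 11.5 TPM (SD, n = 4). Its partner Ifngr2, the signalling chain (ENSMUSG00000022965, chromosome 16, 91547072 to 91565169, plus strand), was at 81.5, 74.2, 80.0 and 70.2 TPM, with a mean of 76.5 ± 5.25 TPM. The levels of these partners did not overlap, since the lowest library of Ifngr1 lay above the highest of Ifngr2.

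Ifnar1, which completes the type I interferon receptor and carries TYK2 (ENSMUSG00000022967, chromosome 16, 91485238 to 91507441, plus strand), was at 124, 108, 116 and 95.5 TPM, with a mean of 111 ± 12.1 TPM. Replicate 1 was its highest library and replicate 4 its lowest. Ifnar2, the chain that binds type I interferon most tightly (ENSMUSG00000022971, chromosome 16, 91372783 to 91405589, plus strand), was at 62.6, 57.1, 59.6 and 54.9 TPM, with a mean of 58.6 ± 3.31 TPM. Here too the lowest library of Ifnar1 lay above the highest of Ifnar2.

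The interleukin 10 receptor genes were the lowest. Il10rb, the shared chain (ENSMUSG00000022969, chromosome 16, 91406164 to 91425834, plus strand), had values of 34.9, 31.3, 32.7 and 29.9 TPM, with a mean of 32.2 ± 2.13 TPM. Il10ra, the chain that binds interleukin 10 itself (ENSMUSG00000032089, chromosome 9, 45253837 to 45269149, on the minus strand), had values of 28.5, 34.7, 27.0 and 32.2 TPM, with a mean of 30.6 ± 3.51 TPM. Their ranges overlapped, and replicates 2 and 4 were the high libraries of Il10ra but the low ones of Il10rb.

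**Figure D1:**
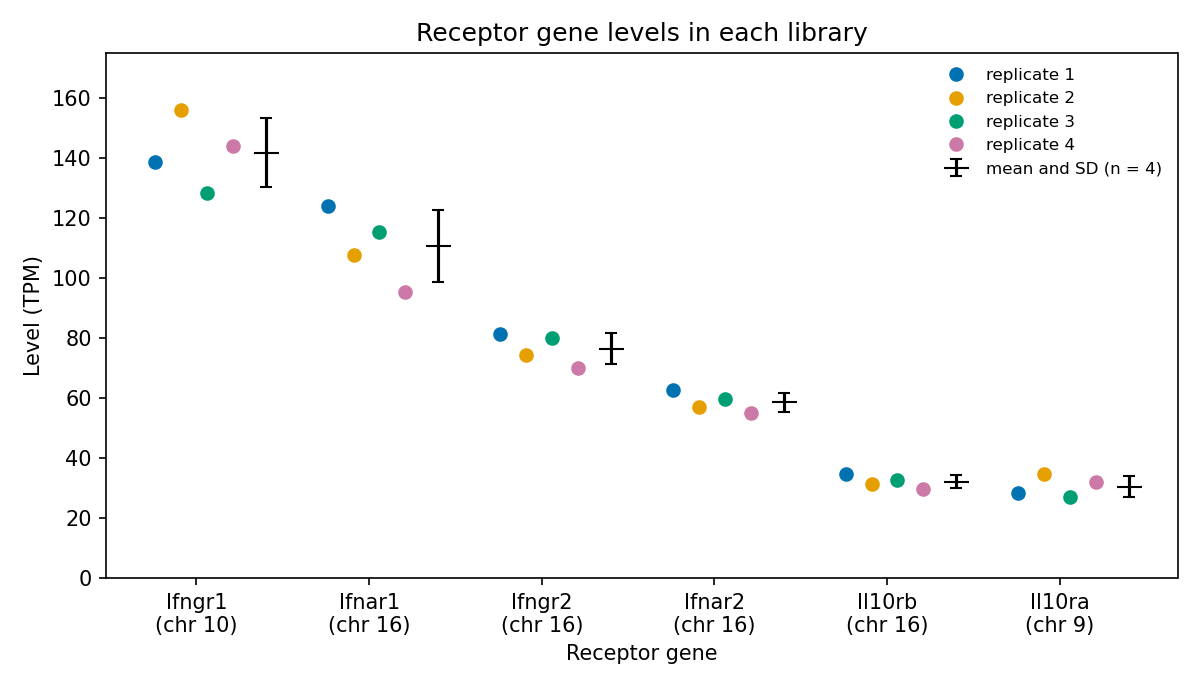
Level of each receptor gene in TPM (vertical axis, from 0) for the 6 genes in order of their mean, with 1 coloured point per replicate and a black bar for the mean and SD of 4 libraries. Ifngr1 is highest at 142 ± 11.5 TPM, and Il10rb and Il10ra overlap at the bottom at 32.2 ± 2.13 and 30.6 ± 3.51 TPM.

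Every one of the 6 genes reached 1 TPM in all 4 libraries, against 45.6% of the 21751 nuclear protein-coding genes. Their median level was 67.5 TPM, beside 0.355 TPM for all of those genes and 34.2 TPM for the 9926 that reached 1 TPM. By mean TPM among all protein-coding genes, Ifngr1 stood at percentile 94.8, Ifnar1 at 92.9, Ifngr2 at 88.9, Ifnar2 at 85.4, Il10rb at 76.3 and Il10ra at 75.6. The fragments behind these levels ran from 829 for Il10ra in replicate 1 to 9655 for Ifnar1 in replicate 3, so counting error alone gave a coefficient of variation of at most 3.47% in any library. Counts are of whole genes, so isoforms were not told apart. A later GENCODE release lists 8 transcripts for Ifnar1 and 5 for Ifnar2, of which 3 and 5 are protein coding.

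The promoter sequences of these genes are shown because 3 of them come from neighbouring genes that ranked the libraries alike, and the other from Ifngr1, which did not. RefSeq (GRCm38.p6, mm10) sequences of the 250 bases before the RefSeq gene start matched 4 of the 6 genes, all on the plus strand. For Ifnar1 and Ifngr2 the RefSeq start lies slightly before the start given in the deposited tables. Il10ra and Il10rb had no match. Capitals mark every match, on either strand, to the GAS element bound by STAT dimers (TTCNNNGAA), the core of the ISRE element of type I interferon targets (GAAA, any 2 bases, GAAA), the GC box (GGGCGG, or CCGCCC on the other strand), an ETS factor motif (CGGAAG), the CCAAT box (CCAAT, or ATTGG on the other strand) and the TATA box (TATAAA).
Ifnar2, chr16:91372533-91372782: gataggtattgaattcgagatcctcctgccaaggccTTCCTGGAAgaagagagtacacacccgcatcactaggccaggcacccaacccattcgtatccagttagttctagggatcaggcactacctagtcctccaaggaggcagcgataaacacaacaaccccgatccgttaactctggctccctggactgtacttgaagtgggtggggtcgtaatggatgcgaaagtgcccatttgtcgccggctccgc
Ifnar1, chr16:91484965-91485214: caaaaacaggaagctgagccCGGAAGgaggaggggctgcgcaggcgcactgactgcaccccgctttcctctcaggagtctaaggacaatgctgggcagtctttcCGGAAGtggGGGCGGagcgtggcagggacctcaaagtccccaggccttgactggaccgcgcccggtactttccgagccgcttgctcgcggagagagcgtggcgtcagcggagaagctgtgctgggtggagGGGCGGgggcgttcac
Ifngr2, chr16:91546809-91547058: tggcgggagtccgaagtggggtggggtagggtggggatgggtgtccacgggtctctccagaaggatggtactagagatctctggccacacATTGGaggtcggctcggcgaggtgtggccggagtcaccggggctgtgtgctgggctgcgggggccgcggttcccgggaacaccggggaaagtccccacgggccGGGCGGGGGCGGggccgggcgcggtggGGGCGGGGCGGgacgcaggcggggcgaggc
Ifngr1, chr10:19591699-19591948: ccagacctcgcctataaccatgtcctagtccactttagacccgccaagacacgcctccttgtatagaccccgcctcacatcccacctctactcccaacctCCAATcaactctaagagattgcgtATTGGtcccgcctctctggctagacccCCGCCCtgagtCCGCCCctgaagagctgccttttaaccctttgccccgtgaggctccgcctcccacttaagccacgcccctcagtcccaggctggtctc

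The GC content of these windows was 54.0% in Ifnar2, 65.6% in Ifnar1, 74.0% in Ifngr2 and 59.2% in Ifngr1, beside a median of 52.4% over 32851 promoters of the same length. They held 11, 19, 25 and 11 CpG dinucleotides in the same order, beside a median of 6. Ifngr2 was the most GC rich, at percentile 95.1, and had 4 GC boxes, of which the last overlaps its neighbour by 1 base.

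A GAS match was present in Ifnar2 alone among these windows, 214 to 206 bases before the start, and 7.02% of all promoters held one. Ifnar1 alone held the ETS motif, with 2 matches, and 13.6% of all promoters held it. GC boxes were found in Ifnar1 (2), Ifngr2 (4) and Ifngr1 (2) and in 32.7% of all promoters, and CCAAT boxes in Ifngr1 (2) and Ifngr2 (1) and in 33.9% of all promoters. The ISRE core and the TATA box, present in 2.98% and 12.4% of all promoters, had 0 matches in the 4 windows. None of the motifs searched was held by all 3 windows from chromosome 16, and Il10rb had no window. Whether promoter sequence has a part in the library rankings was not tested. A match describes the letters in the window only.

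The balance of the chains of each receptor was compared within each library. Ifnar1 exceeded Ifnar2 by 0.99, 0.92, 0.95 and 0.80 on the log2(TPM + 0.1) scale in replicates 1 to 4, a mean of 0.91 ± 0.08 (SD, n = 4), or 1.88-fold. Ifngr1 exceeded Ifngr2 by 0.76, 1.07, 0.68 and 1.04, a mean of 0.89 ± 0.19, or 1.85-fold. In both interferon receptors 1 chain was thus the more abundant in 4 of 4 libraries. The exact two-sided sign-flip permutation test gave for each the smallest p that 4 libraries allow, which is 2 of 16 sign patterns, and an adjusted p of 0.134 (Benjamini-Hochberg over the 15 pairs of the 6 genes). The size of these ratios depends on the length used. Without the exon bases that Ifnar2 shares with another gene, the mean log2 ratio of Ifnar1 to Ifnar2 was 0.77. That alternative was chosen after the data were seen. With the longest transcript in GENCODE M21, of any transcript type, the mean log2 ratio was 1.37 for Ifnar1 over Ifnar2 and 1.48 for Ifngr1 over Ifngr2. On counts with no length correction it was 1.73 and 0.67. That release is later than the one used for counting. Its longest Ifngr2 transcript, of 3708 bases, exceeds the 3313 counted exon bases, so the 1.48 rests partly on bases whose fragments were not counted.

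The interleukin 10 receptor had no such order with the exon lengths of the deposited tables. The log2 ratio of Il10ra to Il10rb was -0.29, 0.15, -0.28 and 0.11, with a mean of -0.08 ± 0.24 (exact sign-flip permutation p = 0.5, n = 4). Il10ra was thus the lower chain in replicates 1 and 3 and the higher one in replicates 2 and 4, and the mean ratio lay within 1 SD of 0. Whether an order appeared depended on the length used. With the longest transcript as length, Il10rb was above Il10ra in 4 of 4 libraries, with a mean log2 ratio of -0.53 (the smallest p possible in the exact permutation test). Part of the exons of Il10rb overlaps another gene, Gm21970. Leaving those shared bases out of its length also put Il10rb above Il10ra in 4 of 4 libraries, with a mean log2 ratio of -0.31 (again the smallest p possible in the exact permutation test; an alternative chosen after the data were seen).

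**Figure D2:**
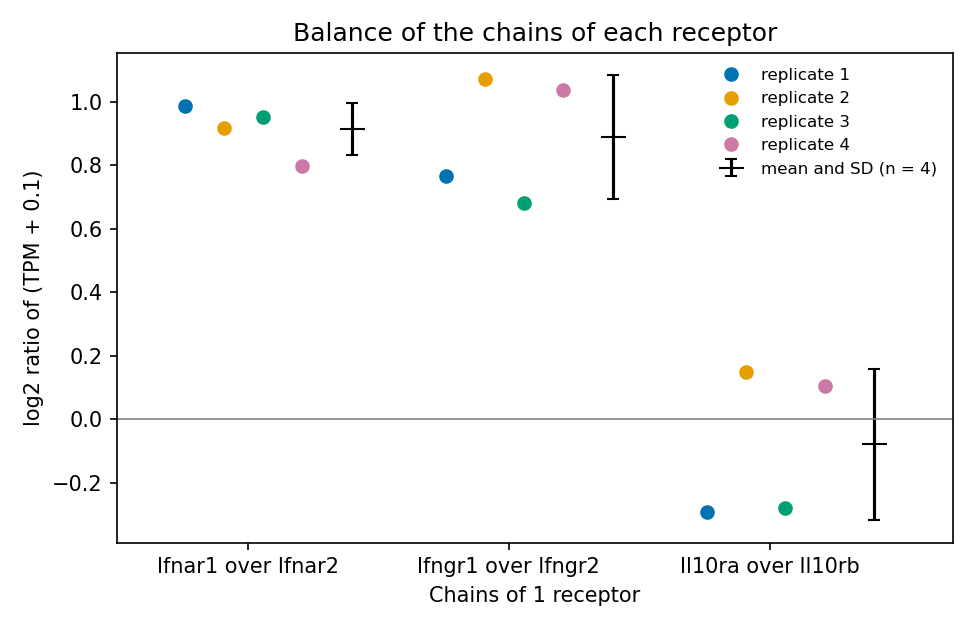
Log2 ratio of TPM + 0.1 between the chains of each receptor (vertical axis), with 1 coloured point per replicate and a black bar for the mean and SD of 4 libraries; 0 means equal levels. The interferon receptor ratios lie between 0.68 and 1.07 in every library, whereas the interleukin 10 receptor ratios lie on both sides of 0.

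The order of the means was Ifngr1, Ifnar1, Ifngr2, Ifnar2, Il10rb and Il10ra. Of the 15 pairs, 14 had the same sign in 4 of 4 libraries, and none could pass an adjusted p of 0.05 with 4 libraries. Ifngr1 exceeded its neighbour Ifnar1 by only 0.36 ± 0.24 on the log2 scale, and with the longest transcript as length that difference was 0.20 and no longer of 1 sign (exact permutation p = 0.375). By counts with no length correction Ifngr1 was instead below Ifnar1 in every library, at 3286 to 5301 against 6076 to 9655 fragments. Ifnar1 exceeded Ifngr2 by 0.53 ± 0.07, and Ifnar2 exceeded Il10rb by 0.86 ± 0.014. Ifngr2 exceeded Ifnar2 by 0.38 ± 0.03, which fell to 0.24 without the shared exon bases of Ifnar2. With the longest transcript as length, which for Ifngr2 includes uncounted bases, it fell to 0.09. Levels of neighbours in this order thus rest partly on the length assigned to each gene.

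The 6 genes were then read out from a test for spread between libraries beyond the trend for a gene's abundance. With edgeR's quasi-likelihood dispersion test, 0 of 6 had an adjusted p below 0.05, beside 0.193% of the 12464 genes tested, and 0 had an unadjusted p below that value. DESeq2 also marked 0 of the 6 as dispersion outliers. Ifnar1 came nearest in the edgeR test, with an adjusted p of 0.942. Its unadjusted p fell below 0.05 with no filter on low counts and without replicate 3, where the edgeR adjusted p was 0.446 and 0.987. The adjusted p of the other 5 was at least 0.991 in the edgeR test.

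The spread of each gene over libraries was nevertheless larger than its counting error. Coefficients of variation were 11.5% for Il10ra, 10.9% for Ifnar1, 8.13% for Ifngr1, 6.87% for Ifngr2, 6.61% for Il10rb and 5.66% for Ifnar2. The median of the 6 was 7.50%, beside 5.40% for the 4167 protein-coding genes between the lowest and the highest of their means. Il10ra and Ifnar1 were more variable than 91.9% and 90.5% of those genes, and Ifnar2 than 53.6%. The highest library exceeded the lowest by 1.14-fold for Ifnar2 to 1.30-fold for Ifnar1.

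The 4 genes on chromosome 16 ranked the libraries in the same way. Ifnar1, Ifnar2, Ifngr2 and Il10rb each had their highest TPM in replicate 1, then replicates 3, 2 and 4. Relative to its own mean, Ifnar1 deviated by 0.17, -0.03, 0.07 and -0.21 on the log2 scale in replicates 1 to 4. Ifnar2 deviated by 0.10, -0.03, 0.03 and -0.09, Ifngr2 by 0.09, -0.04, 0.07 and -0.12, and Il10rb by 0.12, -0.04, 0.03 and -0.10. These deviations differ in size, with Ifnar1 the widest, but have the same sign in each library. The order is a common one: 11.1% of the 9926 protein-coding genes had it, more than had any other order, and 47 of 317 such genes on chromosome 16 had it, or 14.8%.

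Ifngr1 and Il10ra, on chromosomes 10 and 9, ranked the libraries differently. Both were highest in replicate 2, then replicates 4, 1 and 3, an order held by 6.8% of the 9926 genes. Ifngr1 deviated from its mean by -0.03, 0.14, -0.14 and 0.03 in replicates 1 to 4, and Il10ra by -0.10, 0.19, -0.17 and 0.08. The libraries in which the genes of chromosome 16 lay above their means were thus those in which these genes lay below theirs. The ranking of every one of the 6 genes was the same with TPM over nuclear protein-coding genes alone and with TMM scaling.

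Some marker sums moved with these rankings. The 7 monocyte or macrophage markers summed to 11.1, 16.5, 10.5 and 14.3 TPM in replicates 1 to 4, the library order of Ifngr1 and Il10ra, with 2 of 7 at 1 TPM in every library. Cd68, at 8.98, 14.9, 8.95 and 11.6 TPM, made up most of the sum, and Itgam, at 1.89, 1.52, 1.36 and 1.66 TPM, was instead highest in replicate 1, while Cd14 and Fcgr1 were at 0 in every library and Csf1r had 3 counts in all. The naive T-cell markers summed to 7122, 6567, 7260 and 6408 TPM, with the higher sums in replicates 1 and 3 as for the genes of chromosome 16. This was not particular to them, since the CD4 T-cell markers summed to 8145.5, 7854.6, 8154.0 and 7936.6 TPM. The low sums of B-cell and granulocyte markers were also higher in replicates 1 and 3, while those of Th17, dendritic-cell and NK or CD8 T-cell markers were not. Tcf7, the most abundant of these markers, was at 3287, 2785, 3417 and 2649 TPM, whereas Il7r, also among them, was higher in replicates 2 and 4. The part of these differences in the receptor gene levels was not tested.

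**Figure D3:**
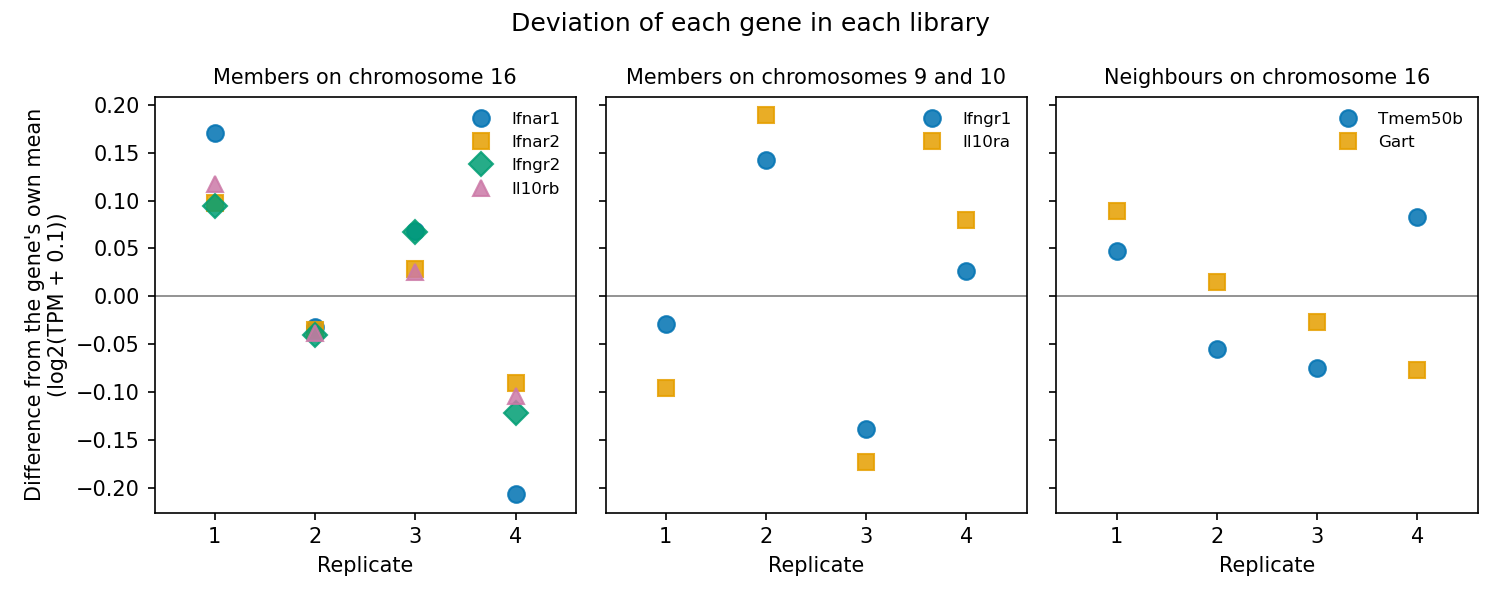
Deviation of each gene from its own mean on the log2(TPM + 0.1) scale (vertical axis) in replicates 1 to 4 (horizontal axis), for the 4 receptor genes of chromosome 16, for Ifngr1 and Il10ra, and for 2 neighbours of the gene cluster. The points of Ifnar1 and Ifngr2 coincide in replicate 3, and the first panel is above 0 in replicates 1 and 3 where the second is below it.

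The ratios of the gene pairs are computed from these same levels, so their spread restates the division and adds no separate result. Among the 6 pairs with both genes on chromosome 16, the SD of the log2 ratio over libraries was 0.014 to 0.0820. For the pair of Ifngr1 and Il10ra it was 0.0595, around a mean ratio of 2.21. For the 8 pairs with 1 gene on chromosome 16 it was 0.172 to 0.294. The steadiest pair was Ifnar2 and Il10rb, whose ratio was 0.84, 0.87, 0.86 and 0.88. Its SD lay below the counting error of a single library's ratio, which reached 0.0555, so a difference in this ratio between libraries was not detectable at this depth. The least steady pair was Ifnar1 and Il10ra. Both interferon gamma receptor chains and both interleukin 10 receptor chains fall in the group with larger SDs, at 0.19 and 0.24, whereas the type I receptor chains had an SD of 0.08.

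**Figure D4:**
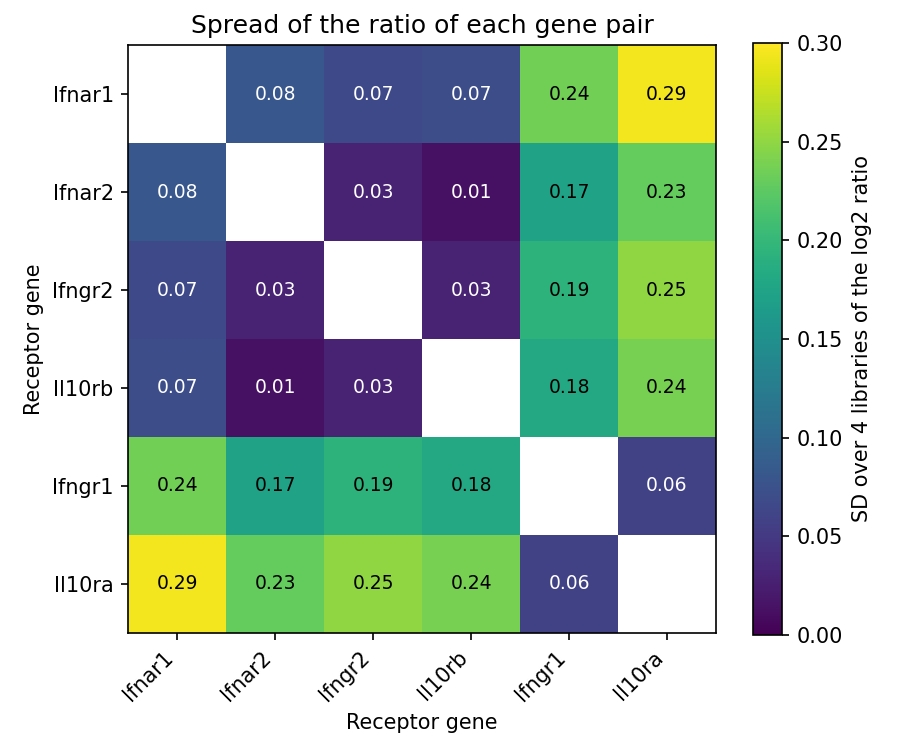
SD over 4 libraries of the log2 ratio of TPM + 0.1 for each pair of receptor genes, as colour and as a number rounded to 2 decimals. The block of Ifnar1, Ifnar2, Ifngr2 and Il10rb and the pair of Ifngr1 and Il10ra are dark, at up to 0.0820, and the 8 pairs across them are light, at 0.172 or more.

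The 4 genes on chromosome 16 lie on the plus strand within 192387 bases, in the order Ifnar2, Il10rb, Ifnar1 and Ifngr2. Neighbours were named by their position alone. On the side of Ifnar2 the annotation has 4932438H23Rik, with 34 counts in all libraries together, and the oligodendrocyte factor genes Olig2 and Olig1, with 0 counts each. On the side of Ifngr2 lie Tmem50b, Dnajc28 and Gart, on the minus strand. Tmem50b was at 35.3 ± 1.89 TPM (SD, n = 4), Dnajc28 at 4.50 ± 0.444 TPM and Gart, which encodes an enzyme of purine synthesis, at 123 ± 6.06 TPM. The receptor genes thus lie between genes with few or no counts and genes at 4.50 TPM or more on average.

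The neighbours did not rank the libraries as the receptor genes did. Tmem50b was at 36.5, 34.0, 33.5 and 37.4 TPM, with its highest value in replicate 4, where each of the 4 receptor genes had its lowest. Gart was at 131, 124, 121 and 117 TPM and shared with them the highest and the lowest library. The SD of the log2 ratio to Gart was 0.0435 for Ifnar2, 0.0486 for Il10rb, 0.0678 for Ifngr2 and 0.107 for Ifnar1, beside 0.134 for Ifngr1 and 0.192 for Il10ra. The SD of the ratio to Tmem50b was 0.121 to 0.200 over the 6 genes. For Ifnar2 and Il10rb the ratio to Gart was thus steadier than the ratio to Ifnar1, whose SDs were 0.0820 and 0.0708.

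Ifnar2 and Il10rb are joined in the annotation by Gm21970, a readthrough gene on the same strand (91391721 to 91419451). Its exons share 315 bases with Ifnar2, or 9.46% of that gene's exon length, and 569 with Il10rb, or 14.9%, which together make up its whole length of 884 bases. Fragments in shared exons were not counted for any of these genes, so both receptor genes are undercounted to an unknown extent, and the 0 counts of Gm21970 follow from the counting and say nothing of its level. With the shared bases left out of the lengths, Ifnar2 was at 64.7 and Il10rb at 37.8 TPM on average. The other 4 receptor genes share no exon base with another gene on their strand.

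Among the other receptors of the family, Il20rb, a chain of the receptors for IL-19, IL-20 and IL-24, was at 1.53 ± 0.160 TPM with 296 counts and was the only 1 of 6 genes at 1 TPM in every library. Ifnlr1, Il22ra1, Il22ra2 and Il20ra had 0 counts in every library, and F3, the tissue factor gene, had 1. Partner chains that IL10RB needs for interferon lambda and interleukin 22 were thus not detected at this depth. At 0 counts the level of Ifnlr1 could still be up to 0.0505 TPM in the deepest library, where 3 counts are allowed for a count of 0, a limit for counting error only.

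The ligands were near the detection limit. Of 18 type I interferon genes 0 reached 1 TPM, 15 had 0 counts, and Ifnab had 7 counts, Ifna7 had 2 and Ifnz had 1 over all libraries. Ifnb1, the interferon beta gene, had 0 counts, which allows 0.281 to 0.480 TPM. Fragments that map equally to several of the near-identical Ifna genes were not counted, so these values are uncertain. Of 8 other ligand genes 0 reached 1 TPM: Ifng, Ifnl3 and Il20 had 0 counts, Ifnl2 had 1, Il24 had 2, Il10 had 4, Il19 had 7 and Il22 had 8. The 6 receptor genes were thus at 27.0 TPM or more in every library, while the listed ligands stayed below 1 TPM.

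The 3 kinases of these receptors were all present. Jak1 was at 655 ± 22.2 TPM (SD, n = 4), Jak2 at 120 ± 6.20 and Tyk2 at 83.9 ± 2.88 TPM. Set against the chain each sits on, the kinase transcript was the higher in 5 of 6 cases. Jak1 exceeded Il10ra 21.5-fold, Ifnar2 11.2-fold and Ifngr1 4.63-fold by the mean log2 ratio. Tyk2 exceeded Il10rb 2.61-fold, and Jak2 exceeded Ifngr2 1.57-fold. Tyk2 was below Ifnar1 in 4 of 4 libraries, with a log2 ratio of -0.52, -0.34, -0.53 and -0.19 and a mean of -0.39 ± 0.16. By counts with no length correction, Tyk2 was below Ifnar1 in replicates 1 to 3 but above it in replicate 4, at 7426 against 7259 fragments. The ratios to Ifnar2 and Il10rb use levels that lack the fragments in their shared exons. These ratios are descriptions with no test, and transcript levels do not give protein levels.

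Among transcription factor genes that act downstream, 3 are given here, and all were within the range of the receptor genes. Stat2 was at 65.2 ± 5.80, Stat3 at 117 ± 5.72 and Irf9, a DNA-binding partner of STAT2, at 120 ± 16.1 TPM. Each of the 3 had its lowest level in replicate 3. The receptor genes of chromosome 16 were at their lowest in replicate 4, and Ifngr1 and Il10ra in replicate 3.

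All 13 genes that restrain or turn over the receptors reached 1 TPM in every library, with a median of 70.0 TPM. The highest were the phosphatase gene Ptpn6 at 453 ± 75.5, the kinase gene Prkd2, whose product marks IFNAR1 for degradation, at 337 ± 35.4, the feedback inhibitor gene Socs3 at 198 ± 23.1 and the phosphatase gene Ptpn1 at 147 ± 8.42 TPM. None of the 13 was called in the edgeR test for spread between libraries.

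Target genes differed between the pathways in how they moved over libraries. All 18 type I interferon targets reached 1 TPM in every library, with a median of 55.6 TPM, among them Bst2 at 165 ± 23.5, Zbp1 at 149 ± 21.6 and Irf9 at 120 ± 16.1 TPM. All 18 had their lowest level in replicate 3, where their mean deviation on the log2 scale was -0.55, beside 0.20, 0.36 and -0.01 in replicates 1, 2 and 4. The library orders that end in replicate 3 were held by 8.61%, 6.80%, 5.36%, 4.81%, 2.62% and 2.53% of the 9926 protein-coding genes at 1 TPM. In that library Ifnar1 deviated by 0.07 and Ifnar2 by 0.03 from their means. Whether the levels of the receptor genes had a part in the differences between libraries in these targets was not tested. Among the 66 listed genes tested, Ifit1 and Oas2 were the 2 called in the edgeR test (adjusted p = 0.0482 and 0.0396). Over all 12464 genes tested, 0.193% were called. The 66 come from every gene list except the cell-type markers, including the other cytokine receptor families listed for comparison.

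Of the 18 interferon gamma targets 15 reached 1 TPM in every library, with a median of 95.5 TPM. They were led by the immunoproteasome gene Psmb8 at 383 ± 6.43, the peptide transporter gene Tap1 at 314 ± 19.2, the GTPase gene Igtp at 311 ± 18.0 and the transcription factor gene Irf1 at 255 ± 13.9 TPM. The chemokine gene Cxcl9 had 0 counts, Cxcl10 had 14 and the MHC class II regulator gene Ciita had 37. The list's mean deviation was 0.03, 0.03, -0.07 and 0.01 in replicates 1 to 4, and 8 of the 15 had their lowest level in replicate 3. Single members ranged more widely, such as the GTPase gene Iigp1, chosen after its values were seen, at 34.7, 30.3, 42.5 and 35.2 TPM.

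Genes listed for interleukin 10 and STAT3 reached 1 TPM in 9 of 9 cases, with a median of 126 TPM. The RNA-decay factor gene Zfp36 was at 318 ± 20.8, Junb at 295 ± 56.3, Il4ra at 274 ± 9.50, Socs3 at 198 ± 23.1, Pim1 at 126 ± 5.92, Etv3 at 59.5 ± 4.33, Sbno2 at 50.1 ± 4.06, Bcl3 at 46.9 ± 7.46 and Nfil3 at 2.37 ± 0.657 TPM. Many other signals induce these genes as well. With no unstimulated or treated group in the series, levels of targets do not show whether any of the 3 receptors had signalled.

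**Figure D5:**
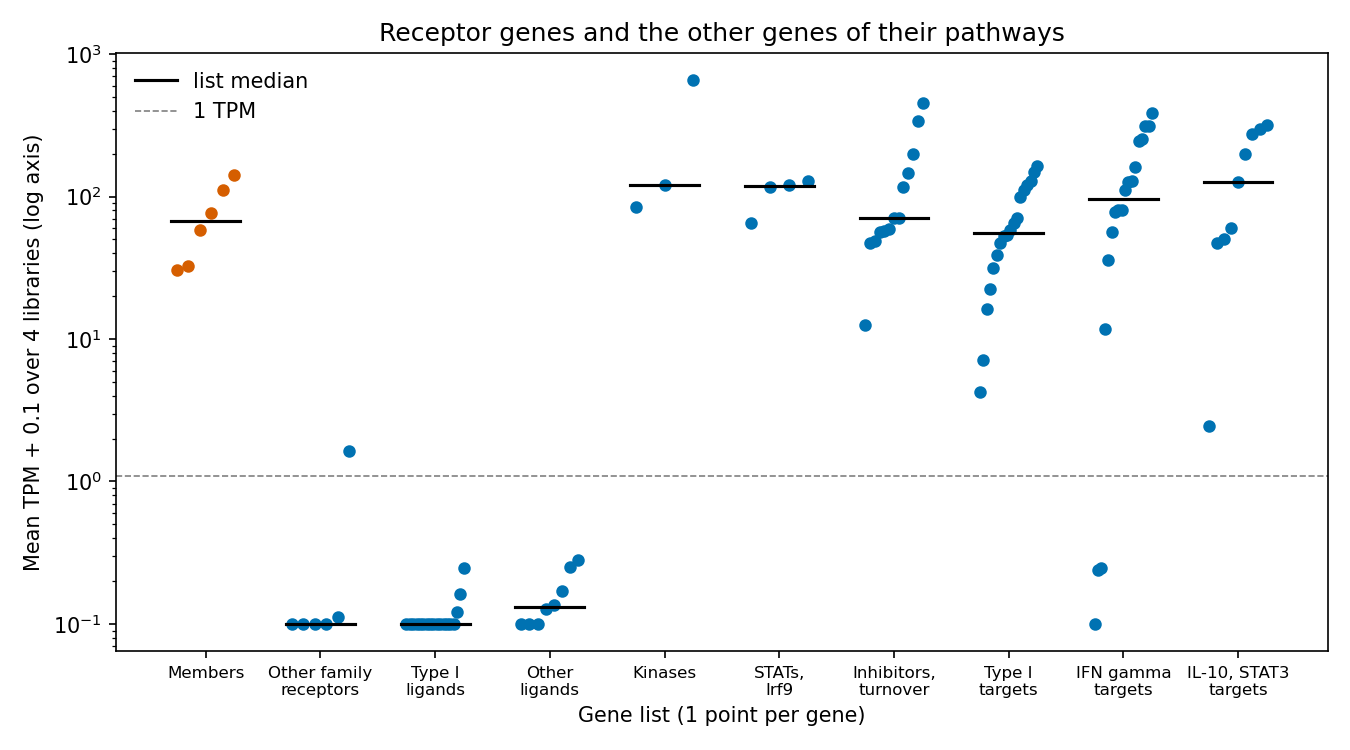
Mean TPM + 0.1 over 4 libraries on a log axis (vertical) for the 6 receptor genes and for each gene of 9 lists of their pathways (horizontal axis, 1 point per gene), with a black line at each list's median and a dashed line at 1 TPM. The receptor genes, kinases and transcription factors lie above the line, and all ligand genes lie below it.

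The genes whose profile over the 4 libraries lay closest to each receptor gene were found by the Euclidean distance between log2(TPM + 0.1) values, which uses level and library order together. The nearest gene to Ifnar1 was Tlr1, a receptor for bacterial lipopeptides, at a distance of 0.0319, with 123, 110, 115 and 95.7 TPM in replicates 1 to 4. For Ifnar2 it was Wars, a tryptophan aminoacyl-tRNA synthetase gene, at 0.0453, and for Ifngr2 it was Pdia6, a protein disulfide isomerase gene, at 0.0398. Ifngr1 was nearest to E4f1 at 0.0584, Il10rb to Decr2 at 0.0680 and Il10ra to Tsen54, a tRNA splicing gene, at 0.0814. The next 2 were Cndp2 and Otulin for Ifnar1, Izumo4 and Tmem165 for Ifnar2, and 2310011J03Rik and Yipf4 for Ifngr2. They were Entr1 and Vars for Ifngr1, Klf7 and Bloc1s6 for Il10rb, and Rfng and Alkbh1 for Il10ra. None of the 18 nearest genes lies on chromosome 16, which holds only 317 of the 9926 protein-coding genes at 1 TPM. With so small a share, none among 18 shows little. Receptor genes themselves were left out of this search, and a gene at a different level could not come near.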

How the data were processed

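The authors deposited 1 table of raw fragment counts for each library. Per the file headers, these counts came from featureCounts 1.4.6-p4 and the exons of the GENCODE M13 annotation of mm10, with both ends mapped and reverse-strand counting. They show no option for fragments shared by genes or mapped to several places, so such fragments were left out. Which aligner version was used is not given in the sources. Exon lengths are those in the deposited tables, while the longest transcript of each gene is that of GENCODE M21.

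Gene IDs, with versions removed, were matched to GENCODE M21 symbols, and 224 of 50600 had none. TPM was computed from counts and exon length. The receptor genes, the gene lists and the tests were chosen with earlier results of these data known. Genes named are the receptor genes, all genes of lists of up to 9, the 4 highest and any called gene of longer lists, the 3 protein-coding neighbours on each side of the chromosome 16 cluster, and the 3 nearest profiles per receptor gene. Some genes that this rule takes are not reported here, though they stay in the list counts and medians. No 2 libraries agreed within sampling noise (chi-square per degree of freedom of 9.60 to 30.1 over all pairs).

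Spread between libraries was tested with edgeR 4.0.16 (R 4.3.3, TMM, filterByExpr, intercept only, robust prior) as a one-sided F test of the quasi-dispersion against its trend, Benjamini-Hochberg adjusted over 12464 genes, and checked on simulated data. Pairs of genes were compared with the exact two-sided sign-flip permutation test with a pseudocount of 0.1. DESeq2 1.42.0, other filters, lengths and scalings, and leaving out each library were alternatives. Python 3.11.15, numpy 2.4.6, pandas 2.3.3, scipy 1.17.1 and matplotlib 3.10.9 were used. Text listings were left out because they hold no measurements.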

Additional observations from a re-analysis of the deposited data

Results flagged for a closer look

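Among 88 values screened (the levels of 73 named genes and the 15 ratios between receptor genes), 1 had a library far from the others. It was the level of 4932438H23Rik, a neighbour of the receptor cluster on chromosome 16, at 0.712 TPM in replicate 1 and 0.211, 0.123 and 0.162 TPM in replicates 2 to 4. The gap of replicate 1 to its nearest value was 0.851 of the whole range, above Dixon's 95% critical value for 4 samples. The gene had 34 counts in all, and chance marks about 1 in 20 groups in this way. None of the 6 receptor genes and none of their 15 ratios was marked.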

How the results depend on the processing

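The count of receptor genes called for spread between libraries was 0 of 6 under every alternative run. The count over all genes, 24 with edgeR, was 349 with no filter on low counts, 10 at a mean CPM of 5 or more, 5 without the robust prior, 6 among nuclear protein-coding genes and 108 as DESeq2 dispersion outliers, and it ran from 7 (without replicate 3) to 86 (without replicate 4) when a library was left out. None of the 15 ratios between receptor genes changed the sign of its mean with a pseudocount of 1, another length or a library left out, although with 3 libraries the ratio of Il10ra to Il10rb came as near to 0 as -0.008. Counts with no length correction were run only for the 3 pairs of chains of the same receptor, whose signs also held. By counts the order of Ifngr1 and Ifnar1, which is not among those pairs, is reversed. Mean TPM moved by more than 1 SD in 6 of 6 genes with protein-coding genes alone as the total, in 5 with the longest transcript as length and in 2 without shared exon bases, and in 0 with TMM scaling. The shared-base length, the alternatives for pairs of chains from different receptors and the check of library order under other scalings were chosen after seeing the data. No comparison of conditions, paired or not, was possible because the labels give 1 group only. Depth limits the ligand genes and the absent family receptors, for which limits cover counting error only, and 4 libraries cannot bring a sign-flip test below 2 of 16 sign patterns.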

Other observations

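Other cytokine receptor families, listed for comparison, held genes well above the 6 receptor genes. Of 8 genes of the common gamma chain family 7 reached 1 TPM in every library, with a median of 152 TPM. Il7r, the interleukin 7 receptor gene, was at 632, 971, 654 and 956 TPM in replicates 1 to 4, highest in replicates 2 and 4 like Il10ra and Ifngr1. Of 9 genes of the IL-6 and IL-12 receptor families 5 reached 1 TPM in every library, with a median of 3.26 TPM. Il6st, the shared gp130 chain gene, was at 159, 133, 166 and 127 TPM, highest in replicates 3 and 1. Of these genes, 7 of 8 and 5 of 9 passed the filter of the edgeR test for spread between libraries, and none of those was called. Il7r and Il6st were singled out after their values were seen.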
